A study of Mus musculus with 18 samples.

Results

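The Kruppel-like factors are zinc finger transcription factors, and 10 of their genes were followed here: Klf2, Klf3, Klf4, Klf5, Klf6, Klf7, Klf9, Klf10, Klf13 and Klf15. They were taken by gene symbol from the 20207 genes in the mRNA-seq files. Of the 10 genes, 9 had at least 1 read in all 18 samples and entered the tests among 12731 genes. Klf15 had no read in 1 control sample, did not pass this filter, and is described from its reads.

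Kruppel-like factors share a carboxy-terminal DNA-binding domain of C2H2 zinc fingers that recognises GC-rich sequences known as CACCC boxes and GC boxes. Their amino-terminal parts differ, so that some members mainly activate transcription, whereas others recruit corepressors such as CtBP or Sin3a. Several members are known as early response genes in fibroblasts and in cells of the vessel wall, and their products regulate proliferation, differentiation and metabolism.

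All samples came from NIH3T3 cells, an established line of mouse fibroblasts, that stably express DD-GFP, an FKBP-derived destabilizing domain fused to superfolder GFP, and that had been sorted for high expression of this protein. The stabilizing ligand S1 was kept in the medium of every group, so the domain was not destabilized in any of them. The control was held at 37°C with 0 min of stress, heat shock (HS) was a shift to 42°C for 45 or 135 min, and tunicamycin (Tu) was given at 5 µM for 45, 135 or 405 min, with 3 samples in each of the 6 groups. HS initiates the heat shock response, and tunicamycin blocks N-linked glycosylation and so initiates the unfolded protein response of the endoplasmic reticulum (ER). One sorted population was used, and the 5 comparisons with the control share the same control samples. There is no HS sample at 405 min, a time that the paper left out because of significant lethality. P-values weigh a difference against the spread between the 3 samples of a group, which is estimated with information shared across genes.

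Between 33415592 and 66478268 reads fell on genes in each sample. Hspa1b, an inducible cytosolic HSP70, rose from 5.76 ± 0.472 CPM (read counts scaled by library size and TMM factor; SD, n = 3) in the control to 873 ± 529.8 at HS 135 min, and Hspa5, the ER chaperone BiP, from 692 ± 40.4 to 9011 ± 252 at Tu 405 min. The ER stress genes Hspa5, Ddit3 and Herpud1 also rose at HS 135 min, by 1.94-fold, 5.01-fold and 6.31-fold. With tunicamycin, 2 of these 3 were called higher at 45 min, Ddit3 (7.59-fold) and Herpud1 (4.78-fold), 0 at 135 min and all 3 at 405 min. The 9 fibroblast markers summed to 29789 to 39116 CPM in the control samples and to 21007 to 22937 CPM at Tu 405 min, where 7 of them were lower. Under HS the same sum was 39789 to 70674 CPM at 45 min, where 0 were called, and 46034 to 78102 CPM at 135 min, where Col3a1 alone was called higher (log2 1.79, adjusted p = 0.0204, edgeR). The 13 markers of epithelial, endothelial, blood, fat and muscle cells found in the files summed to 5.88 to 9.60 CPM in any sample, mostly from Cd68, and 3 to 6 of them were at 0 in a whole group. In bulk samples, fewer cells of a type and less RNA per cell cannot be told apart.

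Libraries differed within groups along 1 main axis of genes, which held 65.5% of the spread within groups and whose gene weights followed transcript GC content (Spearman rho of 0.70 across genes, which are not independent replicates). Replicate 3 of HS 45 min (score of -80.0) and replicates 1 and 2 of HS 135 min (-56.5 and 71.3) stood farthest from 0 on it, followed by replicate 1 of Tu 135 min (51.4). In the control, replicate 1 (21.6) stood apart from replicates 2 and 3 (-11.1 and -10.5). Klf4 and Klf2 had weights at percentiles 91.9 and 89.3 of all genes tested and Klf10 at percentile 18.1, so results on the members are also given without these libraries where that changed a call. The study's methods name a modified Illumina preparation as well as a NuGEN kit without saying which samples used which, so a preparation batch was not tested.

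In unstressed cells, Klf3 and Klf4 were the most abundant members per transcript length and Klf15 was close to absent. By the authors' RPKM in the 3 control samples, Klf3 had 25.5 ± 2.45 (SD, n = 3), Klf4 21.4 ± 1.35, Klf10 16.1 ± 1.36, Klf9 15.5 ± 0.793, Klf6 13.4 ± 3.66 and Klf5 11.3 ± 0.967. Klf13 followed with 6.78 ± 1.97 RPKM, Klf7 with 6.01 ± 1.23, Klf2 with 4.21 ± 0.432 and Klf15 with 0.0277 ± 0.0321. The ranges over samples overlapped between Klf10 and Klf9, between Klf9 and Klf6, between Klf6 and Klf5 and between Klf13 and Klf7, so these neighbours in the order were not separated. Klf3 lay at percentile 80.2 of the genes tested and Klf2 at percentile 40.8. At HS 135 min and at all 3 times of tunicamycin the highest mean RPKM was that of Klf4, from 39.9 ± 12 at Tu 135 min to 70.4 ± 19.3 at HS 135 min (SD, n = 3 each).

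The 5' flanks are shown for Klf2, Klf4 and Klf15, which had higher levels under both stresses, and for Klf13, which fell late under tunicamycin. RefSeq promoter windows of 300 bases, 250 before and 50 after the start site, were matched by symbol for 8 of the 10 members on build GRCm38.p6, which is not the mm9 build of the count files. No window was found for Klf5 and Klf10. The windows of Klf2 (chr8:72318812-72319111, plus strand), Klf4 (chr4:55532426-55532725, minus strand), Klf13 (chr7:63938866-63939165, minus strand) and Klf15 (chr6:90462326-90462625, plus strand) are printed 5' to 3' along the gene, with every motif match in capitals.
Klf2: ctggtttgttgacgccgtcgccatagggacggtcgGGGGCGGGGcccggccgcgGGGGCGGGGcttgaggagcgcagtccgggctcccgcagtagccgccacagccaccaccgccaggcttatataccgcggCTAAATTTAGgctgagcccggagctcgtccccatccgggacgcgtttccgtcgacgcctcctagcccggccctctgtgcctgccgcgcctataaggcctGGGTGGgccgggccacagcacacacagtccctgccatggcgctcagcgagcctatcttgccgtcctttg
Klf4: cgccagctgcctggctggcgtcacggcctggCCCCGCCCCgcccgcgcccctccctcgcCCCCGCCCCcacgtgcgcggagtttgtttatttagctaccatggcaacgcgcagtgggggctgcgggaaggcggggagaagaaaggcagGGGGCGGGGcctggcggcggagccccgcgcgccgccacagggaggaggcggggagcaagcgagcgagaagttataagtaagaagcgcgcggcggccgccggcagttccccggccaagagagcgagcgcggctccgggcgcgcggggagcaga
Klf13: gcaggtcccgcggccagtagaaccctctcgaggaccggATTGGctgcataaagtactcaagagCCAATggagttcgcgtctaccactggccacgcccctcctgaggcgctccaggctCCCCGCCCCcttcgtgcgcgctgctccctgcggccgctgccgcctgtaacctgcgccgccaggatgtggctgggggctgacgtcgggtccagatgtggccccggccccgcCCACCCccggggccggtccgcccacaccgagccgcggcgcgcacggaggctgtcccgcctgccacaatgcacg
Klf15: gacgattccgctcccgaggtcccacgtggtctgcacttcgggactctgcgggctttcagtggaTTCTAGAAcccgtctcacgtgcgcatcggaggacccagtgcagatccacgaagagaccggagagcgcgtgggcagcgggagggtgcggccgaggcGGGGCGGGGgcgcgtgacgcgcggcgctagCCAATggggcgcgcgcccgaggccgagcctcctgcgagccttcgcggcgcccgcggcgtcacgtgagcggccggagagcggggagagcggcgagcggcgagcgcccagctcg

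Both strands were searched for motifs that Kruppel-like factors, MEF2 factors and stress factors are known to bind. Klf2 held a match to the MEF2 site (CTA, any 4 bases, TAG) centred at -113.5 bases from the start, a match found in 3.69% of 32851 promoter windows. It also held 2 GC boxes (GGGGCGGGG, in 11.4% of windows) and 1 CACCC box (CCACCC, in 31.5%). Klf4 held 3 GC boxes, Klf13 a GC box, a CACCC box and 2 CCAAT boxes (CCAAT, in 37.4% of windows), and Klf15 a GC box and a CCAAT box. Klf15 was also the 1 member of the 8 with a tail-to-tail pair of heat shock element units (TTCNNGAA, in 8.52% of windows), centred at -183.5 bases. Klf3 held 3 CACCC boxes and a GC box, Klf7 3 CACCC boxes, Klf6 4 CCAAT boxes and Klf9 3 CCAAT boxes, of which 2 overlap.

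None of the 8 windows held the head-to-head pair GAANNTTC (7.86% of all windows), the 3-unit heat shock element (0.603%), the cAMP response element TGACGTCA (1.79%) or the C/EBP-ATF element TGATGNAAT (0.965%). The unfolded protein response element TGACGTGG (0.676%), the ER stress response element (0.119%) and the TATA box TATAAA (13.6%) were not found in them either. A match describes the letters in the window and shows no binding.

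**Figure D1:**
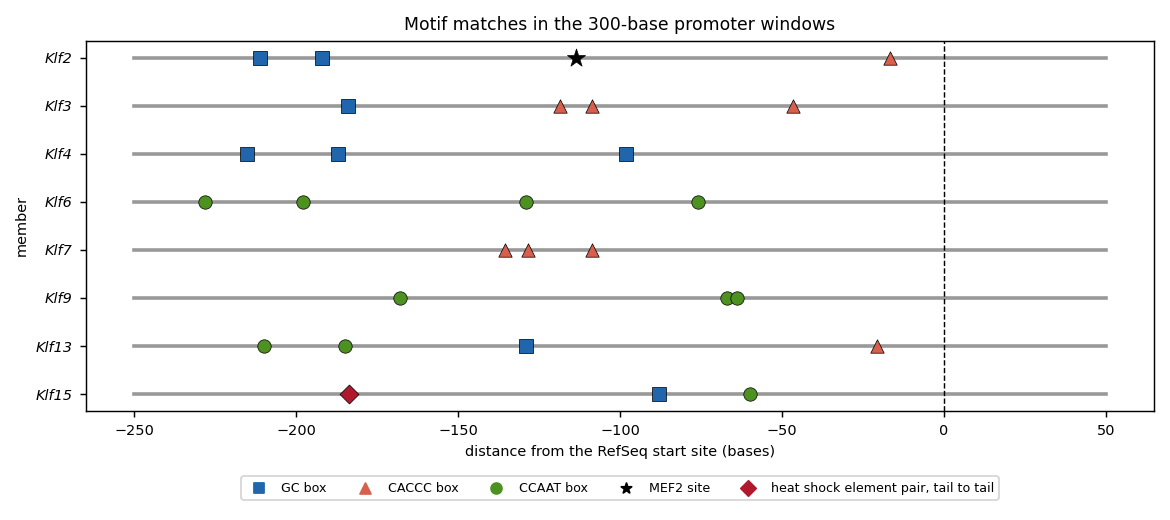
Motif matches in the RefSeq promoter windows of 8 members, with distance from the start site in bases on the horizontal axis and 1 line per member. The MEF2 site match lies on the Klf2 line alone, the heat shock element pair on the Klf15 line alone, and the CCAAT boxes on the lines of Klf6, Klf9, Klf13 and Klf15.

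Under HS, 4 of the 9 members tested rose at 135 min, namely Klf2, Klf3, Klf4 and Klf5. At that time 4.75% of all genes tested were called higher (quasi-likelihood test of edgeR, Benjamini-Hochberg adjusted p under 0.05) and 2.64% lower, and 0 members were lower. The median log2 fold change of the 9 members was 0.96, against -0.0200 over all genes tested. At HS 45 min the same 4 members had all 3 samples above the control, as 12.5% of all genes did, but edgeR called 0 of the 9 members and 0.0% of all genes in either direction. Unadjusted p was under 0.05 there for 4 members and for 1568 higher and 912 lower genes, and the DESeq2 Wald test called 3 members and 382 higher and 64 lower genes. The median of the 9 members at HS 45 min was 0.70, against -0.0319 over all genes.

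Under tunicamycin, 6 of the 9 members rose at 45 min, namely Klf2, Klf4, Klf5, Klf7, Klf9 and Klf10. At that time 4.01% of all genes tested were called higher and 2.17% lower, 0 members were lower, and the median log2 fold change of the 9 members was 1.0 against -0.00375 over all genes. At Tu 135 min 0 members passed the threshold in edgeR, where 0.126% of all genes were called higher and 0.00785% lower. All 9 members had positive log2 fold changes at that time (median 0.75, against -0.00288 over all genes), 7 of them had an unadjusted p under 0.05, and the DESeq2 Wald test called 4 of them and 4.81% of all genes. For 7 members all 3 samples of Tu 135 min lay above all 3 control samples, as for 13.7% of all genes tested. At Tu 405 min 3 members were higher and 1 was lower, in a comparison that called 23.3% of all genes higher and 23.5% lower, so the members' share was near that of all genes.

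**Figure D2:**
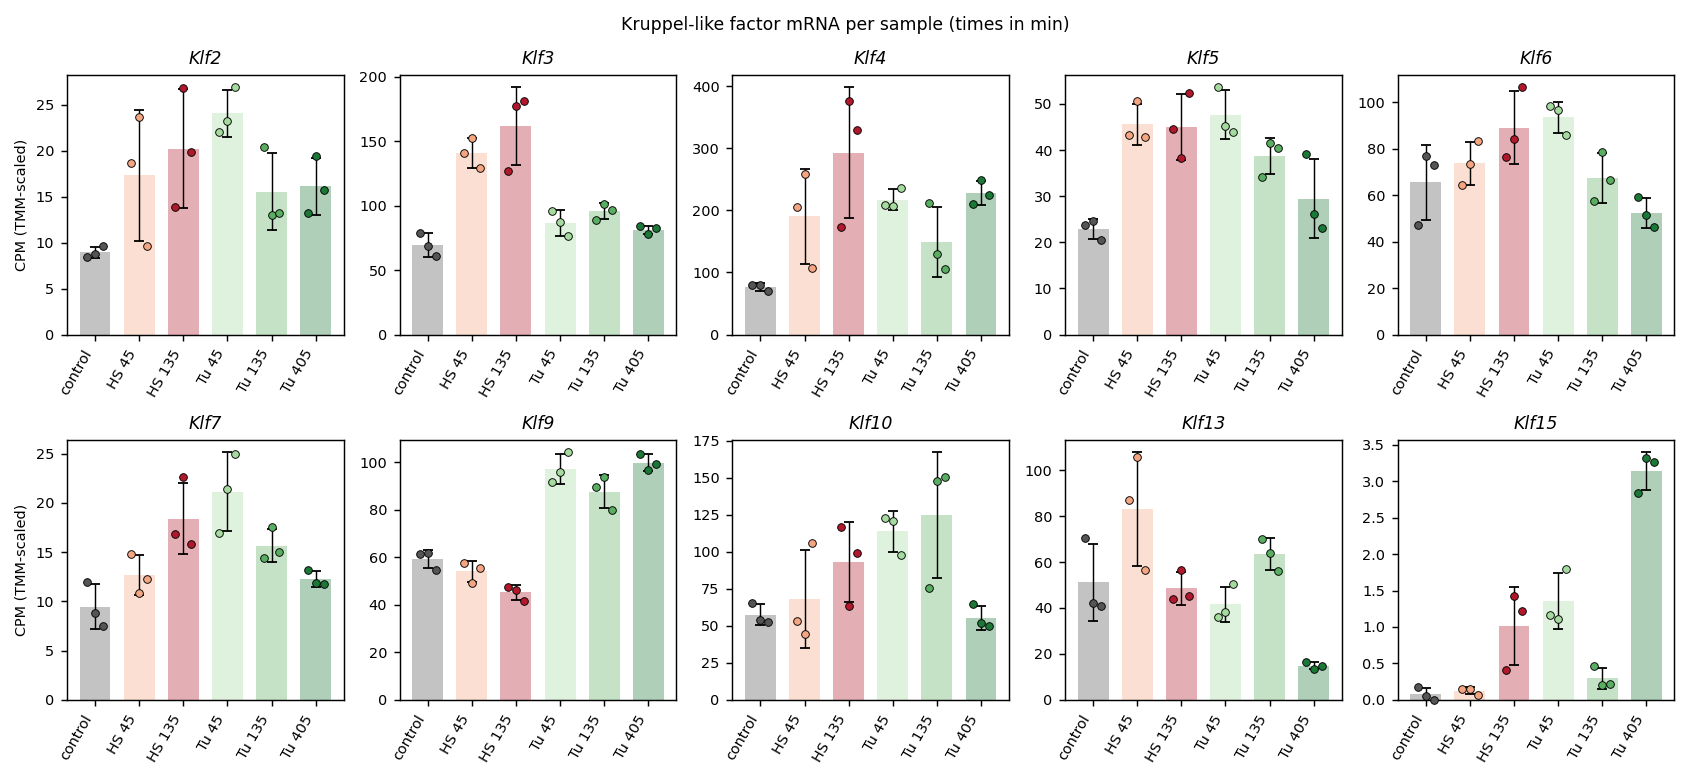
Levels of the 10 members in TMM-scaled CPM on linear axes from 0, 1 panel per gene, with times in min. Points are single samples, bars the mean of 3 and error bars the SD, and Klf4 samples under stress all lie above the 3 control samples, whereas Klf13 at Tu 405 min lies at 13.5 to 16.4 CPM, below every other Klf13 sample.

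**Figure D3:**
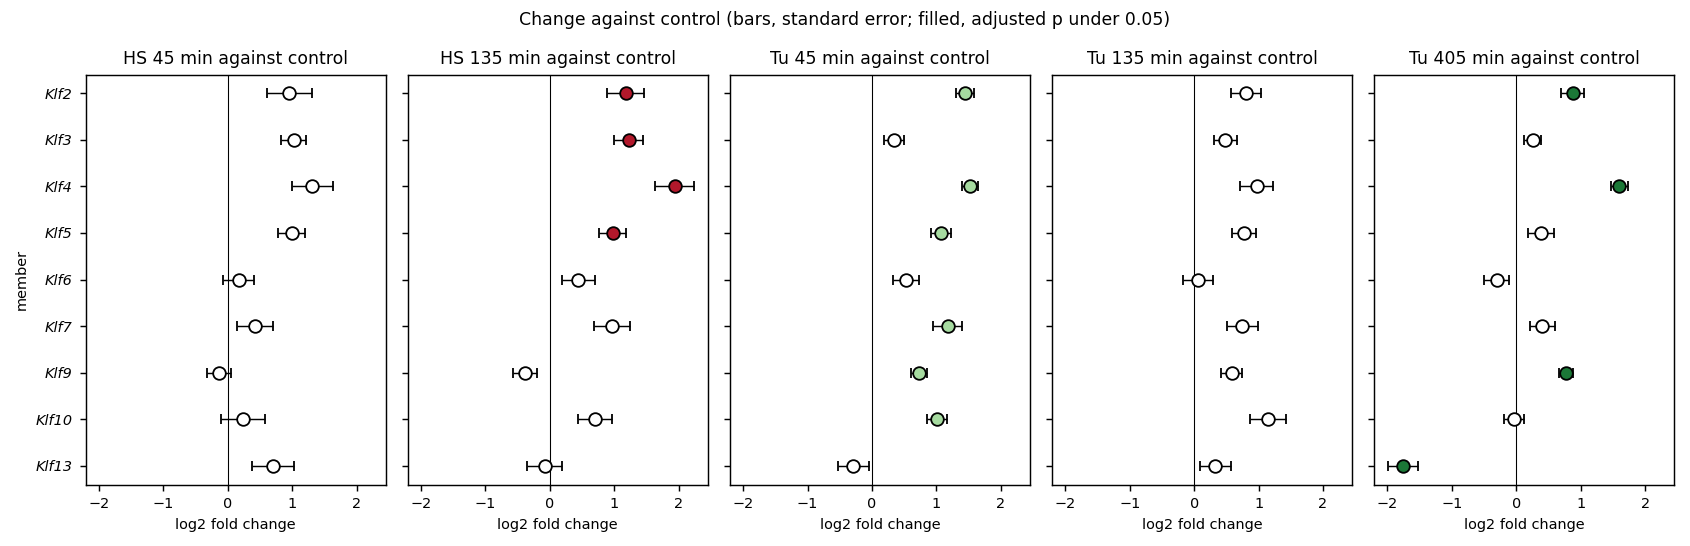
Log2 fold change against the control for the 9 members tested, with standard errors as bars, 1 panel per comparison. Filled points have an adjusted p under 0.05 (edgeR), which are 0, 4, 6, 0 and 4 members in HS 45, HS 135, Tu 45, Tu 135 and Tu 405 min, and Klf9 lies below 0 at both times of HS and above 0 at all 3 times of tunicamycin.

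Klf4, 1 of the factors used to reprogram fibroblasts to pluripotency and a known activator of Cdkn1a, had the highest log2 fold change of the members tested at HS 45, HS 135, Tu 45 and Tu 405 min. The gene lies on the minus strand of chromosome 4 (mm9, 55540009 to 55545347). Its 3 control samples had 79.3, 80.4 and 69.7 CPM, those of HS 45 min 206, 258 and 107 CPM, and those of HS 135 min 174, 376 and 329 CPM. All 6 HS samples lay above the control, and the lowest at each time was the library with the lowest axis score (replicate 3 at 45 min, replicate 1 at 135 min). Under tunicamycin Klf4 had 208, 207 and 237 CPM at 45 min, 212, 129 and 105 CPM at 135 min, and 210.2, 249 and 225 CPM at 405 min. These 9 samples also lay above the control without overlap, close together at 45 and 405 min and widely spread at 135 min.

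The difference of Klf4 from the control was 3.83-fold at HS 135 min (log2 1.94, standard error 0.303, adjusted p = 0.0190, edgeR). It was 2.87-fold at Tu 45 min (log2 1.52, standard error 0.123, adjusted p = 0.00133, edgeR) and 3.03-fold at Tu 405 min (log2 1.60, standard error 0.128, adjusted p = 6.21e-05, edgeR). The test was not passed at HS 45 min (log2 1.32, standard error 0.324, adjusted p = 0.227, edgeR) or at Tu 135 min (log2 0.97, standard error 0.253, adjusted p = 0.131, edgeR). Without replicate 3 of HS 45 min the log2 fold change at that time was 1.60 (adjusted p = 0.00124, edgeR), and over 16 alternatives the adjusted p ranged from 0.00124 to 0.615. With an offset for transcript GC content, chosen after seeing the data, the log2 fold change of Klf4 was 0.98 at HS 45 min, 1.71 at HS 135 min, 1.49 at Tu 45 min and 1.49 at Tu 405 min.

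Klf2, an activator best known for keeping endothelial cells and T cells quiescent, had the lowest control level per transcript length of the 9 members tested, and it was called in the same 3 comparisons as Klf4. It is encoded on the plus strand of chromosome 8 (mm9, 74842961 to 74845553). The control samples had 8.41, 8.79 and 9.63 CPM, and those of Tu 45 min 22.1, 23.2 and 27.0 CPM, a 2.72-fold difference (log2 1.44, standard error 0.146, adjusted p = 0.00356, edgeR). At Tu 135 min Klf2 had 20.4, 13 and 13.2 CPM, and at Tu 405 min 13.2, 19.4 and 15.8 CPM. All 9 tunicamycin samples were above the control, with the highest mean at 45 min. The difference at 405 min was called (1.83-fold, log2 0.87, standard error 0.174, adjusted p = 0.00432, edgeR) and that at 135 min was not (log2 0.81, standard error 0.232, adjusted p = 0.151, edgeR).

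Under HS, Klf2 had 18.7, 23.6 and 9.63 CPM at 45 min and 13.9, 26.9 and 19.9 CPM at 135 min. The third sample at 45 min was level with the highest control sample, and the samples at both times stood in the order of their axis scores. The difference at 135 min was 2.26-fold (log2 1.18, standard error 0.290), and its adjusted p of 0.04997 (edgeR) was just inside the threshold. With the GC offset the log2 value was 0.60 (adjusted p = 0.0857, edgeR, within a range of 0.000666 to 0.196 over 16 alternatives). At HS 45 min (log2 0.95, standard error 0.350, adjusted p = 0.236, edgeR) the offset left a log2 value of 0.04.

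Klf5, a growth-promoting activator in epithelia and smooth muscle, rose at HS 135 min and at Tu 45 min. It lies on the plus strand of chromosome 14 (mm9, 99697910 to 99712628). The control samples had 23.7, 24.6 and 20.5 CPM, those of HS 45 min 43.3, 50.7 and 42.8 CPM, those of HS 135 min 44.5, 38.2 and 52.3 CPM, and those of Tu 45 min 53.7, 45.3 and 43.8 CPM. All 9 of these stressed samples lay above the control range. The difference was 1.96-fold at HS 135 min (log2 0.97, standard error 0.216, adjusted p = 0.0381, edgeR) and 2.10-fold at Tu 45 min (log2 1.07, standard error 0.150, adjusted p = 0.0114, edgeR), and at HS 45 min it was 1.99-fold with an adjusted p of 0.227 (edgeR).

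Later under tunicamycin, Klf5 had 34.2, 41.5 and 40.5 CPM at 135 min and 39.1, 26.2 and 23.1 CPM at 405 min. The samples of 405 min overlapped with the control (log2 0.38, standard error 0.203, adjusted p = 0.154, edgeR). The transcript GC content of Klf5, 60.3%, was at percentile 95.5 of the genes tested, and that of Klf2, 61.6%, at percentile 97.5. With the GC offset the log2 value of Klf5 at HS 135 min was 0.58 (adjusted p = 0.239, edgeR, within a range of 0.000322 to 0.398 over 16 alternatives).

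Klf7, an activator known from neurons and adipocyte precursors, rose at Tu 45 min. It lies on the minus strand of chromosome 1 (mm9, 64082247 to 64167963), where GENCODE also places the transcript Gm13748 on the other strand, and reads of the pair cannot be told apart if strand was not used. Control samples had 12, 8.84 and 7.53 CPM and those of Tu 45 min 17.0, 21.4 and 25.0 CPM, without overlap (2.26-fold, log2 1.17, standard error 0.221, adjusted p = 0.0266, edgeR). At HS 135 min it had 16.8, 22.6 and 15.8 CPM, also above the control range, but the test was not passed (log2 0.96, standard error 0.278, adjusted p = 0.0701, edgeR). The other 3 stressed groups had 10.8 to 17.6 CPM.

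Klf6, a broadly expressed activator also described as a tumour suppressor, was called in none of the 5 pairwise comparisons with the control by edgeR, and at Tu 45 min in 3 of 16 alternatives. Chromosome 13 carries it on the plus strand (mm9, 5860735 to 5869639). It had 47.2, 76.9 and 73.0 CPM in the control, and its highest group means were 93.6 ± 6.61 CPM at Tu 45 min and 89.1 ± 15.7 CPM at HS 135 min (SD, n = 3 each). At Tu 45 min all 3 samples were above the control, at 98.3, 96.6 and 86.1 CPM (log2 0.53, standard error 0.196, adjusted p = 0.144, edgeR). Samples of Tu 405 min, at 59.2, 51.5 and 46.5 CPM, overlapped with those of the control.

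Klf3, which represses transcription through the corepressor CtBP, rose at HS 135 min and passed the test at no time of tunicamycin. The gene lies on the plus strand of chromosome 5 (mm9, 65194762 to 65221368). It had 78.8, 68.7 and 60.6 CPM in the control, 141, 153 and 129 CPM at HS 45 min and 127, 178 and 181 CPM at HS 135 min. The 6 HS samples all lay above the control and above all 9 tunicamycin samples, which had 76.2 to 102 CPM. The difference from the control was 2.33-fold at HS 135 min (log2 1.22, standard error 0.222, adjusted p = 0.0237, edgeR) and 2.03-fold at HS 45 min (log2 1.02, standard error 0.198, adjusted p = 0.227, edgeR). The direct comparison of HS with tunicamycin missed the threshold at both 45 min (log2 0.70, standard error 0.165, adjusted p = 0.123, edgeR) and 135 min (log2 0.73, standard error 0.195, adjusted p = 0.10, edgeR).

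Klf9, which recruits Sin3a and is a known target of glucocorticoid and thyroid hormone receptors, rose at Tu 45 and Tu 405 min. It lies on the plus strand of chromosome 19 (mm9, 23215716 to 23241401), where GENCODE also places the microRNA gene Mir1192. Control samples had 61.5, 61.7 and 54.8 CPM. Tunicamycin samples had 91.7, 96.0 and 104 CPM at 45 min, 89.6, 93.6 and 79.8 CPM at 135 min, and 104, 96.7 and 99.4 CPM at 405 min, all above the control. The difference was 1.66-fold at Tu 45 min (log2 0.73, standard error 0.118, adjusted p = 0.0166, edgeR) and 1.71-fold at Tu 405 min (log2 0.77, standard error 0.114, adjusted p = 0.00104, edgeR), and the test was not passed at Tu 135 min (log2 0.58, standard error 0.159, adjusted p = 0.140, edgeR).

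Under HS, Klf9 had 57.7, 49.0 and 55.5 CPM at 45 min and 47.7, 46.4 and 41.8 CPM at 135 min. The samples at 135 min were all below the control, but the test was not passed (log2 -0.39, standard error 0.186, adjusted p = 0.199, edgeR). It was called lower there in 3 of 16 alternatives, namely the fit shared by the 6 groups (adjusted p = 0.0252, edgeR), that fit with 1 surrogate variable (adjusted p = 0.00791, edgeR) and the GC offset (adjusted p = 0.0493, edgeR). HS and tunicamycin differed directly at 135 min, where Klf9 was the 1 member called and was lower in HS (log2 -0.98, standard error 0.171, adjusted p = 0.0411, edgeR), when 1.3% of all genes were called higher in HS and 0.817% lower. At 45 min the same comparison missed the threshold (log2 -0.85, standard error 0.144, adjusted p = 0.0797, edgeR), with no overlap of the samples. The call at 135 min was lost when any 1 of the 6 libraries was left out, with adjusted p between 0.0509 and 0.237 (edgeR) and log2 differences between -1.04 and -0.92. Over 16 alternatives its adjusted p ranged from 3.55e-06 to 0.437 (edgeR and DESeq2).

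Klf10, the TGF-beta inducible early gene and another Sin3a-binding repressor, rose at Tu 45 min and overlapped with the control at Tu 405 min. It lies on the minus strand of chromosome 15 (mm9, 38224168 to 38230462). Control samples had 65.5, 54.2 and 52.6 CPM, those of Tu 45 min 123, 121 and 97.9 CPM, those of Tu 135 min 75.7, 148 and 151 CPM, and those of Tu 405 min 64.8, 51.8 and 49.6 CPM. The samples of both earlier times lay above the control and those of the last overlapped with it. The difference at Tu 45 min was 2.01-fold (log2 1.0, standard error 0.156, adjusted p = 0.0144, edgeR). At Tu 135 min the test was not passed (log2 1.14, standard error 0.282, adjusted p = 0.123, edgeR), and without replicate 1 of Tu 135 min the log2 value was 1.41 (adjusted p = 0.0410, edgeR, within a range of 5.80e-05 to 0.50 over 16 alternatives).

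From Tu 135 to Tu 405 min Klf10 fell by 1.19 on the log2 scale (standard error 0.267, adjusted p = 0.00909, edgeR). Under HS the levels were 53.4, 44.5 and 106 CPM at 45 min and 117, 63.4 and 99.1 CPM at 135 min, overlapping with the control at both times. The high sample at 45 min was the library with the lowest axis score, and the low sample at 135 min the one with the highest. At HS 135 min the test was not passed (log2 0.70, standard error 0.261, adjusted p = 0.126, edgeR), but Klf10 was called higher in 3 of 16 alternatives. These were the GC offset (log2 0.83, adjusted p = 0.0248, edgeR), the surrogate variable (log2 1.03, adjusted p = 6.07e-05, edgeR) and the fit without replicate 2 of HS 135 min (log2 0.94, adjusted p = 0.0259, edgeR).

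**Figure D4:**
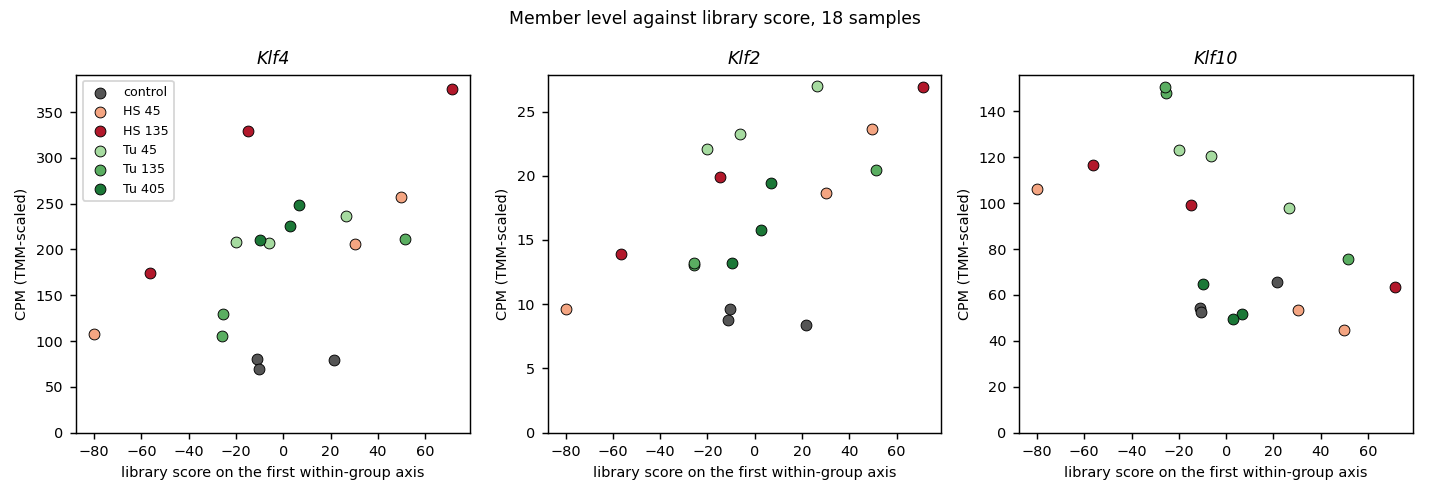
Level of Klf4, Klf2 and Klf10 in TMM-scaled CPM against the score of each of the 18 libraries on the first axis of spread within groups (arbitrary units, scores from -80.0 to 71.3), coloured by group. Within HS 45 and HS 135 min the Klf2 values stand in the order of the scores and the Klf10 values in the reverse order, and the Tu 405 min libraries lie close together.

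Klf13, a Sin3a-binding member known from T cells and heart, was the 1 member called lower against the control in the pairwise tests. It lies on the minus strand of chromosome 7 (mm9, 71031238 to 71083801). Control samples had 70.6, 42 and 40.8 CPM, of which the first was the control library that stood apart, and those of Tu 405 min had 16.4, 13.5 and 14.6 CPM. The samples of Tu 405 min were the 3 lowest of all 18. Their level was 0.295 of the control (log2 -1.76, standard error 0.231, adjusted p = 0.000594, edgeR), and without control replicate 1 the log2 value was -1.45. At Tu 135 min Klf13 had 70.0, 64.1 and 56.3 CPM, and from there to Tu 405 min it fell by 2.12 on the log2 scale (standard error 0.150, adjusted p = 7.61e-05, edgeR).

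Before that fall, Klf13 had 36.1, 38.0 and 50.5 CPM at Tu 45 min, overlapping with the control. Under HS it had 86.9, 106 and 56.6 CPM at 45 min and 43.8, 56.5 and 45.2 CPM at 135 min, and it was called at neither time. All 3 samples of HS 45 min were above all 3 of Tu 45 min, but the test was not passed (log2 1.0, standard error 0.266, adjusted p = 0.135, edgeR).

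Klf15, known as a glucocorticoid-induced regulator of amino acid and glucose metabolism, was almost unread in the control and had more reads in the stressed groups. It lies on the plus strand of chromosome 6 (mm9, 90412620 to 90425203). The control libraries held 7, 3 and 0 reads, and those of HS 45 min 8, 7 and 5 reads. HS 135 min had 26, 64 and 69 reads, Tu 45 min 78, 84 and 85, Tu 135 min 19, 11 and 8, and Tu 405 min 180, 188 and 181. In TMM-scaled levels the samples of Tu 405 min had 2.84, 3.32 and 3.26 CPM, against 0.176 CPM in the highest control sample. All samples of HS 135, Tu 45, Tu 135 and Tu 405 min lay above the control samples, and those of HS 45 min overlapped with them.

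The share of reads on Klf15, summed over the 3 libraries of a group, was 41.4 times that of the control at Tu 405 min, with an exact 95% interval of 22.3 to 86.7. It was 19.8 times at Tu 45 min (10.6 to 41.8), 12 times at HS 135 min (6.36 to 25.5), 4.08 times at Tu 135 min (1.99 to 9.17) and 1.5 times at HS 45 min (0.672 to 3.6). These intervals cover counting error only and rest on 10 control reads. When genes with reads in fewer samples were kept, edgeR gave Klf15 adjusted p-values of 3.10e-05 at Tu 405 min, 0.00673 at Tu 45 min and 0.0268 at HS 135 min, and of 0.262 at Tu 135 min and 0.613 at HS 45 min. In the same fits Klf15 rose from Tu 135 to Tu 405 min by a log2 of 3.41 (standard error 0.322, adjusted p = 7.44e-05, edgeR). From Tu 45 to Tu 135 min the log2 difference was -2.20 (standard error 0.371, adjusted p = 0.0654, edgeR), with no overlap of the samples. Because Klf15 did not pass the filter of the main tests, the values from these fits are a description only.

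**Figure D5:**
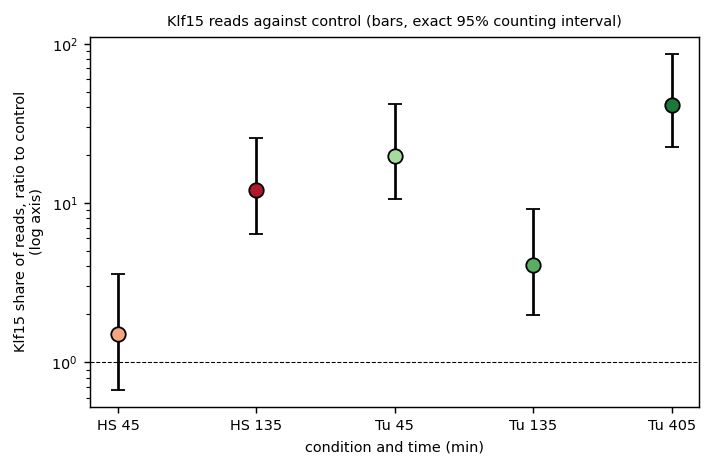
Share of reads on Klf15 relative to the control on a log axis for the 5 stressed groups, with exact 95% counting intervals as bars and a dashed line at 1. The interval of HS 45 min crosses 1 and the other 4 lie above it, the highest at Tu 405 min (41.4).

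Calls at HS 135 min were sensitive to single libraries, for the members as for all genes. All 4 were lost without control replicate 2 (adjusted p of 0.107 to 0.196 for the 4 members, edgeR), without control replicate 3 (0.111 to 0.197) and without replicate 3 of HS (0.112 to 0.193). The calls over all genes fell in these fits from 605 higher and 336 lower to 12 higher and 3 lower, 10 higher and 1 lower, and 11 higher and 0 lower. The log2 fold changes moved little where a call was lost, to 1.85 to 1.98 for Klf4, 1.13 to 1.22 for Klf3, 1.13 to 1.23 for Klf2 and 0.85 to 1.03 for Klf5. Without control replicate 1, Klf2 (adjusted p = 0.0857, edgeR) and Klf5 (adjusted p = 0.0691, edgeR) were lost. Leaving out replicate 2 of HS added Klf10 (log2 0.94, adjusted p = 0.0259, edgeR). Over 16 alternatives the adjusted p of the 4 members ranged from 1.56e-06 to 0.398.

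At Tu 45 min Klf2 and Klf4 kept their calls in all 6 fits that left out 1 library. Klf5 kept its call in 3 of them, Klf10 in 2, and Klf7 and Klf9 in 1 each. Leaving out control replicate 2, control replicate 3 or replicate 2 of Tu 45 min ended the calls of all 4, replicate 1 of Tu 45 min those of Klf7, Klf9 and Klf10, and replicate 3 those of Klf7 and Klf9, with adjusted p of 0.0505 to 0.137 (edgeR) where a call was lost. The log2 fold changes in those fits were 0.99 to 1.12 for Klf5, 1.03 to 1.31 for Klf7, 0.67 to 0.77 for Klf9 and 0.94 to 0.96 for Klf10. Over all genes the calls fell from 510 higher and 276 lower to 84 higher and 18 lower without control replicate 2, 79 higher and 17 lower without control replicate 3 and 55 higher and 3 lower without replicate 2 of Tu 45 min. Over 16 alternatives the adjusted p of the 6 members ranged from 1.44e-22 to 0.156.

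All 4 calls at Tu 405 min and both calls between Tu 405 and Tu 135 min held in each of 16 alternatives. Without control replicate 1 the count at Tu 405 min grew to 7 members, as Klf3 (log2 0.36, adjusted p = 0.00870, edgeR) and Klf7 (log2 0.61, adjusted p = 0.00202, edgeR) were higher and Klf6 (log2 -0.49, adjusted p = 0.00377, edgeR) was lower. In that fit 62.0% of all genes were called, against 46.8% with all libraries.

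Without replicate 3 of HS 45 min, 5 members were called higher at that time, namely Klf2 (log2 1.24, adjusted p = 0.00368, edgeR), Klf3, Klf4, Klf5 and Klf13 (log2 0.91, adjusted p = 0.0294, edgeR). In that setting all genes tested gave 2737 higher and 3049 lower calls. The comparison of HS 45 with Tu 45 min called 0 members, 0.0628% of all genes as higher in HS and 0.141% as lower, and without the same library it called 6 members. These were Klf3 (log2 0.76) and Klf13 (1.22), higher in HS, and Klf6 (-0.44), Klf7 (-0.72), Klf9 (-0.87) and Klf10 (-1.22), lower in HS, with adjusted p of 0.00156 to 0.0327 (edgeR). Without that library 26.8% of all genes were called higher in HS and 28.8% lower, so 6 of 9 members lies near the 55.7% called in either direction.

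Between times, edgeR called 0 members and 0.0% of all genes in either direction from HS 45 to HS 135 min, where 1 member had an unadjusted p under 0.05 and the genes at that level were 658 higher and 823 lower. From Tu 45 to Tu 135 min 0 members were called, against 0.118% of all genes higher and 0.173% lower. Klf2 had all 3 samples lower at 135 min (log2 -0.63, adjusted p = 0.228, edgeR), and Klf13 had all 3 higher (log2 0.62, adjusted p = 0.177, edgeR). Without replicate 1 of Tu 135 min, Klf2 (log2 -0.85, adjusted p = 0.0382, edgeR) and Klf4 (log2 -0.87, adjusted p = 0.0313, edgeR) were called lower at 135 than at 45 min. From Tu 135 to Tu 405 min the 2 calls on Klf10 and Klf13 stood in a comparison that called 21.4% of all genes higher and 22.4% lower. Without replicate 1 of Tu 135 min 7 members and 63.8% of all genes were called there. The added members were Klf4, higher at 405 min (log2 0.94, adjusted p = 8.03e-05, edgeR), and Klf3 (log2 -0.31), Klf5 (-0.50), Klf6 (-0.49) and Klf7 (-0.43), lower at 405 min.

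Relatives and partners of the members were described by lists. None of the lists had a gene called at HS 45 or Tu 135 min. The pairwise tests called 0.0% and 0.134% of all genes at those times, so this says nothing particular to the lists. At HS 135, Tu 45 and Tu 405 min they called 7.39%, 6.17% and 46.8% of all genes. Over all genes tested the median log2 fold change lay between -0.0319 and -0.00288 in the 5 comparisons with the control. Of the 7 other Kruppel-like factors 4 were tested, and Klf11, a Sin3a-binding relative of Klf10, was the 1 gene called. It rose from 6.91 ± 1.91 CPM (SD, n = 3) to 15.0 ± 1.87 at Tu 45 min (log2 1.13, standard error 0.220, adjusted p = 0.0299, edgeR) and 13.3 ± 2.16 at Tu 405 min (log2 0.97, standard error 0.223, adjusted p = 0.00832, edgeR). The median of the 4 was 0.32 at HS 135 min, 0.77 at Tu 45 min and 0.47 at Tu 405 min. Klf16 was not called, but its samples at HS 135 min (15.5, 29.5 and 18.8 CPM) lay below the control (39.9, 37.7 and 35.2 CPM). So did those at Tu 45 min (22.0, 24.4 and 29.5 CPM), whereas those of HS 45, Tu 135 and Tu 405 min overlapped with it. At HS 45 min Klf11 had 3.91, 4.09 and 3.63 CPM, below its control samples (9.11, 5.79 and 5.83 CPM), and was not called. Of the 9 SP factors, which bind the same GC boxes, 6 were tested, and at Tu 405 min Sp2 was higher (log2 0.66) and Sp4 lower (log2 -0.78), with a median of -0.15 and 0 calls at the other times.

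Of 8 corepressors tested, Sin3a was lower at HS 135 min (90.1 ± 6.95 to 44.3 ± 9.64 CPM, log2 -1.02, adjusted p = 0.0355, edgeR) and at Tu 405 min (54.2 ± 7.75 CPM, log2 -0.71, adjusted p = 0.00400, edgeR). At Tu 405 min, when 46.8% of all genes tested were called, 1 of the 8 was higher, Ctbp2 (log2 0.96), and 3 were lower, among them Hdac3 (log2 -0.52), with a list median of -0.36. Of 6 coactivators, the acetyltransferase gene Crebbp was higher at HS 135 min (log2 1.84, standard error 0.431, adjusted p = 0.0436, edgeR), with a list median of 0.16. At Tu 405 min Wwtr1 was higher (log2 0.87) and Yap1 (log2 -0.49) and Kat2b (log2 -1.10) were lower, with a list median of -0.38.

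The kinases MEK5 and ERK5 and the MEF2 factors downstream of them are known activators of Klf2 and Klf4. Of the 8 genes of this pathway, 0 were called at HS 135 min (median 0.37) and 0 at Tu 45 min (median 0.29). At Tu 405 min, the third time when both members were called higher, 3 of the 8 were higher and 1 was lower (median 0.22). At that time 23.3% of all genes tested were called higher and 23.5% lower, so the share called in this list was near that of all genes. A link of the pathway to Klf2 and Klf4 was not tested. Map2k5, which encodes MEK5, was higher (31.2 ± 0.660 to 42.5 ± 3.74 CPM, log2 0.47, adjusted p = 0.0139, edgeR), Mef2b was higher from a level of 0.239 ± 0.0838 CPM (log2 2.11), and Mef2c was lower (6.35 ± 0.352 to 2.73 ± 0.265 CPM). Of 8 ubiquitin ligases described for Kruppel-like factor proteins, Siah1b was lower at HS 135 min (log2 -1.38). At Tu 405 min 2 of the 8 were higher, among them Siah1a (log2 0.80), and 2 were lower, Smurf2 (log2 -1.23) and Fbxw7 (log2 -0.87).

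The glucocorticoid receptor and its targets were listed because Klf9 and Klf15 are themselves known targets, and 6 of 7 genes were tested. Tsc22d3, which encodes the glucocorticoid-induced leucine zipper, rose from 17.0 ± 0.794 CPM in the control to 99.9 ± 31.7 at HS 135 min (log2 2.56, adjusted p = 0.00832, edgeR), 64.2 ± 7.42 at Tu 45 min (log2 1.93, adjusted p = 0.00101, edgeR) and 45.6 ± 4.65 at Tu 405 min (log2 1.45, adjusted p = 0.000101, edgeR). The kinase gene Sgk1 fell from 231 ± 48.9 CPM to 87.1 ± 31.3 at HS 135 min and 50.9 ± 2.84 at Tu 405 min, and the phosphatase gene Dusp1 fell at Tu 45 min (log2 -0.98) and Tu 405 min (log2 -1.35). In total 2 of the 6 were higher and 4 lower at Tu 405 min (median -1.22), when 46.8% of all genes tested were called, so genes of the list moved in both directions.

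Of 14 genes described as targets of Kruppel-like factors, 13 were tested. At HS 135 min 2 of the 13 were higher and 1 was lower, with a list median of 0.48. The higher ones were Cdkn1a (log2 0.80), which encodes the cell cycle inhibitor p21, and Smad7 (log2 1.59). At Tu 45 min 1 of the 13 was higher and 2 were lower, with a list median of -0.0189. Thbd, which encodes thrombomodulin, was higher (109 ± 7.65 to 155 ± 11.9 CPM, log2 0.52, adjusted p = 0.0468, edgeR), and the cyclin gene Ccnb1 was among the lower ones (log2 -1.47). At Tu 405 min, when 46.8% of all genes tested were called, 1 of the 13 was higher and 6 were lower (median -0.35). Among the lower ones were the cyclin gene Ccnd1 (623 ± 44.8 to 225 ± 30.9 CPM) and Tgfbr2 (73.3 ± 5.11 to 33.7 ± 2.72 CPM).

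For each called member, the 3 genes with the most similar log2 level across the 18 samples were found among 8278 genes with a mean of at least 10 CPM, as a description. For Klf4 these were C130039O16Rik (Pearson r of 0.947), Zfp295 (0.937) and Bbc3 (0.935), which encodes the apoptosis inducer PUMA. C130039O16Rik was also among the 3 for Klf2 (0.909), after Osr1 (0.931) and before Usp36 (0.903). Klf13 had the closest companions, with Bace1 (0.992), Igsf3 (0.982) and Nacc2 (0.980). Klf9 was followed by Tnfaip2 (0.962), Ern1 (0.933), which encodes the ER stress sensor IRE1 alpha, and 9430008C03Rik (0.923). Klf3 was nearest to Clip3 (0.933), Mtf1 (0.916) and Phlda1 (0.911), Klf7 to Mitf (0.928), Arhgef2 (0.875) and Hivep2 (0.861), and Klf10 to Nrip1 (0.927), Zkscan1 (0.925) and Srrm2 (0.904). Klf5 had the loosest companions, Pcdh19 (0.843), Tgfb2 (0.830) and Slc30a1 (0.820). The 18 samples fall into 6 groups and share libraries and the GC-related axis, so the values say only that the levels ran alike.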

How the data were processed

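Poly(A) RNA of 18 samples was sequenced on the Illumina HiSeq platform, and the authors aligned the reads to mm9 and analysed them against RefSeq genes with DNAnexus; the aligner is not given in the sources used here. The authors deposited, per gene, estimated counts of reads, RPKM, a Z-score and an RMS-normalized RPKM signal, of which the score and the signal were not used here. Estimated counts were rounded to whole numbers, and genes with at least 1 read in all 18 samples were tested pairwise, 3 against 3, with TMM scaling and edgeR 4.0.16's quasi-likelihood test (R 4.3.3), at an adjusted p of 0.05. The standard error is the log2 fold change divided by the square root of F. Levels are TMM-scaled CPM, and levels between genes are compared by the authors' RPKM. Samples were grouped by their labels. The method was run on counts simulated independently for each gene. These lack the axis of spread that genes share within groups, so the run does not show how the method behaves with it. Alternatives used DESeq2 1.42.0, sva 3.50.0, other filters and scalings, a replicate block, a GC offset and each library left out.

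Named list genes are at most 3 per list and comparison, those called with the smallest p, and 1 of them is not reported here. Members and lists were chosen with earlier results of these data known. All 3 pairs of same-numbered samples deviated together in Tu 135 min against the control alone (correlations of 0.283, 0.229 and 0.188), where the block left 0 members called, as did the fit without it. Such correlations rest on 3 samples per group and cannot exclude a pairing in the other comparisons. Depth was 33415592 to 66478268 reads on genes, so 3 reads correspond to 0.0451 to 0.0898 CPM.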

Additional observations from a re-analysis of the deposited data

Results flagged for a closer look

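A direct test between 2 stressed groups, each compared with the same control, was passed by 3 results on the members. Klf13 was lower at Tu 405 min than at Tu 135 min by a log2 of -2.12 (standard error 0.150, adjusted p = 7.61e-05, edgeR), lower in 3 of 3 samples. Klf10 was lower in the same comparison by a log2 of -1.19 (standard error 0.267, adjusted p = 0.00909, edgeR), also in 3 of 3 samples. These are 2 of 9 members, in a comparison where 22.4% of all genes tested were called lower. Klf9 was lower at HS 135 min than at Tu 135 min by a log2 of -0.98 (standard error 0.171, adjusted p = 0.0411, edgeR), in 3 of 3 samples, where 0.817% of all genes were called lower, and this call did not hold when any 1 library was left out.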

How the results depend on the processing

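Over 1440 refits of the 90 member results, 1252 kept the direction and the side of the threshold, 99 newly passed it, 59 no longer did and 30 turned the direction, and the cause was not tested. All 4 calls at Tu 405 min and both from Tu 135 to Tu 405 min held throughout. With single libraries left out, the number of members called ranged from 0 to 5 at HS 45 min, 0 to 5 at HS 135 min, 2 to 6 at Tu 45 min, 0 to 1 at Tu 135 min and 4 to 7 at Tu 405 min. The share of all genes called in these fits was 0.0% to 45.4%, 0.0864% to 19.4%, 0.456% to 19.6%, 0.0% to 0.479% and 31.9% to 62.0%, in the same order. The number of members called varied in the other comparisons too. It ranged from 2 to 7 between Tu 405 and Tu 135 min, 0 to 2 between Tu 135 and Tu 45 min and 0 to 6 between HS and Tu at 45 min, and was 0 in every such fit between the HS times and between HS and Tu at 135 min. The share of all genes called there was 27.9% to 63.8%, 0.0% to 1.71%, 0.0% to 55.7%, 0.0% to 0.0157% and 0.0% to 2.86%, in the same order.

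The DESeq2 Wald test called 3 members at HS 45 min, 4 at Tu 135 min, 1 between Tu 135 and Tu 45 min, 3 between HS and Tu at 45 min and 2 at 135 min. It also added Klf7, higher at HS 135 min (adjusted p = 0.0173, DESeq2) and lower at Tu 405 than at Tu 135 min (adjusted p = 0.0434, DESeq2). A fit shared by the 6 groups called 3 at HS 45 min, 2 at Tu 135 min, 4 between HS and Tu at 45 min and 2 at 135 min. At HS 135 min the shared fit added Klf7 as higher (adjusted p = 0.00443, edgeR) and Klf9 as lower (adjusted p = 0.0252, edgeR). At Tu 45 min it lost Klf10 (adjusted p = 0.0954, edgeR). With 1 surrogate variable the shared fit called 4 at HS 45 min, 8 at HS 135 min, 7 at Tu 135 min, 4 between the HS times, 3 between Tu 135 and Tu 45 min, 6 between HS and Tu at 45 min and 5 at 135 min. That fit also added Klf6 at Tu 45 min (adjusted p = 0.0234, edgeR) and Klf4, higher at Tu 405 than at Tu 135 min (adjusted p = 0.00172, edgeR). Calls over all genes moved as well. From 0.0% at HS 45 min, 7.39% at HS 135 min and 0.134% at Tu 135 min, the share called in either direction was 3.5%, 16.8% and 4.81% with DESeq2, 10.6%, 25.5% and 3.23% in the shared fit, and 8.95%, 40.4% and 21.6% with the surrogate variable. Between HS and Tu it went from 0.204% at 45 min and 2.12% at 135 min to 8.73% and 9.87%, 9.98% and 13.9%, and 14.0% and 34.6%, in the same order. At Tu 45 min it went from 6.17% to 14.4%, 4.96% and 25.7%, and between Tu 405 and Tu 135 min from 43.7% to 46.7%, 35.4% and 59.8%. From Tu 45 to Tu 135 min it was 0.291% in the pairwise test, 4.79% with DESeq2 and 11.3% with the surrogate variable. With that variable 25.7% of all genes were called between the HS times, against 0.0% in the pairwise test. Total counts without TMM called 2 at HS 135 min, and 1 between HS and Tu at 45 min, Klf9 (adjusted p = 0.0454, edgeR), with 7.26% and 0.911% of all genes called. With no filter and with edgeR's expression filter the 1 member past the threshold there was Klf15 (adjusted p = 0.0355 and 0.0474, edgeR), which is tested in those fits only. They called 0.123% and 0.219% of all genes. Klf15 had 5 to 8 reads at HS 45 min and 78 to 85 at Tu 45 min. The expression filter thus kept it through the group where it was high, and the result is a description only. Total counts also moved the median of all genes to -0.19 at both HS times, 0.10 at Tu 45 min and -0.11 at Tu 405 min, and the split of all calls at Tu 45 min from 510 higher and 276 lower to 878 and 180, and at HS 135 min from 605 and 336 to 498 and 426.

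The GC offset, chosen after seeing the data, called 1 member at Tu 135 min, 1 between Tu 135 and Tu 45 min, 5 between Tu 405 and Tu 135 min and 3 between HS and Tu at 45 min, where it called 2.47%, 2.44%, 52.8% and 4.64% of all genes. At HS 135 min it ended the calls of Klf2 and Klf5 and called Klf10 higher and Klf9 lower, with 19.7% of all genes called. At Tu 45 min it added Klf6 (adjusted p = 0.0163, edgeR), with 15.3% of all genes called. The replicate block called 0 members at HS 135 min, 0 at Tu 45 min and 0 between HS and Tu at 135 min (0.0%, 0.165% and 0.0% of all genes), and with the GC offset 1 at HS 135 min, 4 between Tu 405 and Tu 135 min and 0 between HS and Tu at 135 min (5.98%, 42.5% and 0.0% of all genes). Offset and block together ended the calls of Klf5 and Klf7 at Tu 45 min and added Klf6 (adjusted p = 0.0496, edgeR), with 4.02% of all genes called. The labels give a replicate number and do not say what same-numbered samples shared, so whether a block is the right design was not settled.

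Turned directions concerned values that had not passed the test. Klf10 at Tu 405 min was 0.16 with the surrogate variable, 0.080 with the GC offset and 0.092 with offset and block. Klf5 between the HS times was 0.21 with the offset and 0.16 with offset and block, and Klf6 between HS and Tu at 45 min was 0.15 and 0.13. Klf2 between Tu 405 and Tu 135 min was -0.025 with total counts, Klf5 between HS and Tu was 0.026 at 45 min with the surrogate variable and -0.019 at 135 min with offset and block. With single libraries left out, Klf6 ranged from -0.017 to 0.30 at HS 45 min and -0.13 to 0.19 at Tu 135 min, and Klf10 from -0.23 to 0.47 at HS 45 min, -0.18 to 0.080 at Tu 405 min and -0.020 to 0.41 between Tu 135 and Tu 45 min. Klf13 ranged from -0.22 to 0.23 at HS 135 min and -0.44 to 0.011 at Tu 45 min, and Klf2 from -0.12 to 0.47 between the HS times and -0.13 to 0.27 between Tu 405 and Tu 135 min. Klf5 ranged from -0.14 to 0.064 between the HS times and, between HS and Tu at 45 min, from -0.16 to 0.041, and Klf4 there from -0.48 to 0.093. Depth limits Klf15, with 10 reads in the control.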
